A study of Arabidopsis thaliana with 9 samples.

Results

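These data concern 10 genes of light and shade signalling in RNA-seq counts from whole Arabidopsis thaliana seedlings. They are the PIF genes PIF1 (AT2G20180), PIF3 (AT1G09530), PIF4 (AT2G43010), PIF5 (AT3G59060) and PIF7 (AT5G61270), their relatives PIL1 (AT2G46970) and HFR1 (AT1G02340), the homeobox gene ATHB2 (AT4G16780), and the bZIP genes HY5 (AT5G11260) and HYH (AT3G17609). They were taken by locus ID, and these 10 are a small part of the 27814 loci in the deposited table. Each name was among the symbols or synonyms that the RefSeq annotation gives for its ID. The groups were the wild type Col-0, AtCXE15-OE, a transgenic line that overexpresses a carboxylesterase known to break down strigolactones, and atd14-1, which carries a mutation in D14, the receptor for strigolactones, with 3 libraries each. The promoter of the transgene, the number of independent lines and the number of plants pooled per library are not stated in the labels. Plants of all 3 groups were stratified at 4 °C and grew without further treatment on 1/2 Murashige and Skoog medium at 22 °C. They had 16 h of light and 8 h of dark, at a light intensity that the labels write as 80 to 90 mmol per square metre and second. Their age is 8 days in one label and 10 days in another. Whether the libraries of 1 group are from different sowings is not stated in the labels, and p-values here cover only the variation among 3 libraries, some of which may be technical. Transcripts of PIF4 and PIF5 are known to cycle over the day. The hour of harvest and any batch are not stated in the labels, and cannot be told apart from genotype.

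Phytochromes are red and far-red light receptors that, once activated by light, bind PHYTOCHROME-INTERACTING FACTORS (PIFs) and trigger their phosphorylation and breakdown. PIFs are basic helix-loop-helix (bHLH) transcription factors that bind the G-box and drive elongation in the dark, in shade and in warmth, in part through auxin synthesis. Shade removes this block, and PIFs then induce PIL1, HFR1 and ATHB2, of which HFR1 binds PIFs and holds them off DNA. HY5 and its close relative HYH are bZIP factors that act in the opposite direction, promote development in the light, and are degraded in the dark through the ubiquitin ligase COP1. Much of this control acts on the proteins, which were not measured here.

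Sequences are shown for the pairs of close relatives described side by side: PIF4 with PIF5, which both fell in atd14-1, and HY5 with HYH, of which HYH passed the test and HY5 did not. Translated from the RefSeq coding sequences, PIF4 and PIF5 shared 69.5% of 394 aligned residues, the highest identity among the 7 bHLH proteins, whose other pairs shared 28.6% to 38.6%. HY5 (180 residues) and HYH (149 residues) shared 48.3% of 145 aligned residues. The 250 bases before each annotated gene start are printed 5′ to 3′ on the gene's own strand, from the TAIR10.1 assembly of RefSeq. Capitals mark matches on either strand to 3 motifs. The first motif was the G-box (CACGTG), the core site of PIFs. The second motif was the PBE-box, another site that PIFs bind, whose letters were CACATG. On the opposite strand the PBE-box reads CATGTG. The third motif was the short core ACGT of sites for bZIP factors, which also lies inside every G-box.
PIF4 promoter, chr2:17885851-17886100, plus strand: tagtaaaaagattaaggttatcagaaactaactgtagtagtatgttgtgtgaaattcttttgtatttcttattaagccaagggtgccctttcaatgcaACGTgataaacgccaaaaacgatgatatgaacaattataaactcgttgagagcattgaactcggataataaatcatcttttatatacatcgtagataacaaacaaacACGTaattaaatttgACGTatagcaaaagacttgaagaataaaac
PIF5 promoter, chr3:21830838-21831087, minus strand: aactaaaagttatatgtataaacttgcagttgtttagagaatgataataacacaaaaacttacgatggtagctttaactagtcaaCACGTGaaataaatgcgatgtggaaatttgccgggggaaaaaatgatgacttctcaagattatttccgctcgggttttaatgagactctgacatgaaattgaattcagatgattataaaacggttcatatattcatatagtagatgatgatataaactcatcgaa
HY5 promoter, chr5:3595074-3595323, minus strand: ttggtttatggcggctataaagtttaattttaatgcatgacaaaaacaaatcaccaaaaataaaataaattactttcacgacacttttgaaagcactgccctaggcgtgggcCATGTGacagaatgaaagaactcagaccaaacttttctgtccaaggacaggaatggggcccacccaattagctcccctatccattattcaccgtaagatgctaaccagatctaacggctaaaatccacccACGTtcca
HYH promoter, chr3:6023594-6023843, plus strand: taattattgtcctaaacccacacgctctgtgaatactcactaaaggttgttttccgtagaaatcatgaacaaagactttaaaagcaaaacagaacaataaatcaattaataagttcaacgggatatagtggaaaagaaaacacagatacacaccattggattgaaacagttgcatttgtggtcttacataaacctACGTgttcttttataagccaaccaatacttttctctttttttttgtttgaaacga
PIF5 held a G-box 165 to 160 bases before its start, and was the only one of the 10 genes with one in this window. HY5 held the only PBE-box, 138 to 133 bases before its start. ACGT cores stood in 5 of the 10 promoters, with 3 in that of PIF4. Among 27443 protein-coding promoters of the same length, 6.49% held a G-box, 11.1% a PBE-box and 44.1% an ACGT core, so that the shares among the 10 genes were close to the background. These matches describe letters in a window of set length, and binding was not measured.

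The libraries held 37724263 to 54421069 counts. D14 was at 43.4 to 45.3 CPM in the Col-0 and AtCXE15-OE libraries and at 6.48 to 6.92 CPM in those of atd14-1, and CXE15 was at 3.73 to 4.12, 739 to 964 and 2.94 to 3.09 CPM in Col-0, AtCXE15-OE and atd14-1. Here and below, CPM are counts scaled to library size and TMM factors, and values are mean ± SD over 3 libraries. Of 7 leaf mesophyll markers 4 passed the edgeR test as lower in atd14-1 against Col-0, where 6.87% of all genes tested did. RBCS1A (log2 fold change 0.18 ± 0.46 SE), GLK1 (-0.005 ± 0.05) and PSAD-1 (-0.39 ± 1.57) did not pass. In atd14-1 against AtCXE15-OE, 3 of the 7 passed as lower, where 4.12% of all genes tested did. CAB1 made up the largest part of the sum that follows, with means of 16500 CPM in Col-0 and 12300 CPM in atd14-1. Summed over the list, the Col-0 libraries held 28630 to 31470 CPM, those of AtCXE15-OE 23070 to 30290 and those of atd14-1 21830 to 26180, with no marker at 0. Of 12 root markers 0 passed the edgeR test in the 3 comparisons. Between the lines, however, 3 were called higher in atd14-1 by DESeq2, 3 with library size alone, 2 without AtCXE15-OE replicate 1 and 1 without Col-0 replicate 2, and 3 had an unadjusted p under 0.05. In AtCXE15-OE against Col-0, DESeq2 called 1 lower and 2 had an unadjusted p under 0.05, and in atd14-1 against Col-0 both counts were 0. At their largest, these edgeR p stood at rank 2070 of the 21425 genes tested between the lines, and at rank 2743 in AtCXE15-OE against Col-0. The root marker sum was 105.3 to 126.3, 95.12 to 107.2 and 111.3 to 124.1 CPM. In whole seedlings, fewer cells of a type and less RNA per cell cannot be told apart, and the part of tissue makeup in the results below was not tested.

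All 10 genes were expressed, and all passed the filter on low counts. Per kb of gene length, the scale used to compare genes with each other, PIF4 was highest in Col-0 (mean 61.3 CPM per kb, libraries from 59.0 to 63.2) and PIF5 next (53.7, from 51.1 to 55.5), with no overlap between their libraries. Of the 21425 genes tested, 91.1% had a lower level than PIF4 and 89.7% a lower level than PIF5. PIF1 (mean 22.2), PIF7 (21.2), HYH (17.9), ATHB2 (16.4), PIF3 (15.3) and HY5 (13.4) formed a middle range in which each gene's libraries overlapped those of the next. HFR1 stood below them at 9.40, from 8.15 to 10.2. PIL1, a bHLH gene induced within minutes of shade, was lowest by far at 1.43 CPM per kb, from 1.37 to 1.53, above 14.3% of the genes tested. PIF4, PIF5 and PIF1 kept the first 3 places and HFR1 and PIL1 the last 2 in all 3 groups, whereas PIF3 moved from position 7 in Col-0 to position 4 in atd14-1.

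**Figure D1:**
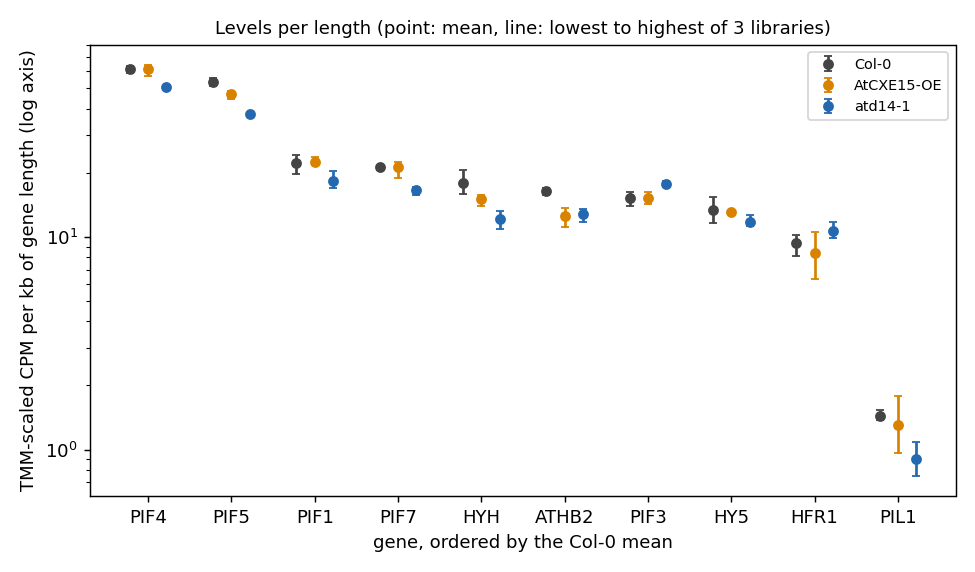
TMM-scaled CPM per kb of gene length on a log axis for the 10 genes, ordered by the Col-0 mean. Points are means and lines run from the lowest to the highest of 3 libraries. PIF4 and PIF5 stand above the other genes in each group and PIL1 stands near 1 CPM per kb.

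The comparison of atd14-1 with Col-0 asked how loss of the strigolactone receptor bears on these genes. Of the 10, 5 fell in the mutant, and these belonged to each branch of the set: the PIF genes PIF4, PIF5 and PIF7, the shade-induced ATHB2 and the bZIP gene HYH. The falls were small, from 17.2% to 32.6%. None of the 10 was called higher. For 6 of the 10 each atd14-1 library lay below each Col-0 library, as in 15.8% of all genes tested. Of all 21425 genes tested, 6.87% were called lower in this comparison, 5.06% higher and 11.9% in either direction (edgeR's quasi-likelihood test, Benjamini-Hochberg adjusted p under 0.05). The median log2 fold change of the 10 was -0.32, against 0.01 over all genes tested. The 10 were chosen with earlier results of these data known, so this contrast is a description only. Without composition scaling, that is with library size alone, 4 fell and 1, PIF3, rose. Of the 21425 genes tested, 968 were called lower and 2241 higher with that scaling. With replicate number as a block in the fit, PIF1 was also called lower and PIF3 higher.

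PIF5, which promotes elongation in shade and warmth, was at 134, 132 and 123 CPM in Col-0, at 108, 116 and 117 CPM for AtCXE15-OE, and at 91.5, 91.6 and 91.4 CPM for atd14-1. The 3 groups formed steps with no overlap. PIF5 had the smallest p of the 10 genes (log2 fold change -0.50 ± 0.05 SE in atd14-1, edgeR adjusted p = 1.85e-05), and it was called in each of the 19 alternatives, including the one that summed into it the loci whose long spans cover it (-0.18, adjusted p = 0.0238). PIF4, its closest relative and a main factor of warm-temperature growth, was at 127, 131 and 122 CPM in Col-0, at 118, 132 and 129 CPM for AtCXE15-OE, and at 106, 103 and 105 CPM for atd14-1. Its mutant libraries lay below those of both other groups, which overlapped each other. Its log2 fold change in atd14-1 passed the test (-0.27 ± 0.05, edgeR adjusted p = 0.00325). With the loci whose long spans cover PIF4 summed into it, the call was lost (-0.13, adjusted p = 0.942). PIF7, the PIF most tied to rapid shade responses, was at 31.7, 30.1 and 31.8 CPM in Col-0, at 27.8, 32.7 and 32.9 CPM for AtCXE15-OE, and at 25.2, 24.9 and 23.1 CPM for atd14-1. It followed PIF4 in that the mutant alone stood apart (log2 fold change -0.36 ± 0.08, edgeR adjusted p = 0.00781).

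The other PIF genes did not pass the test in the mutant. PIF1, a repressor of seed germination in the dark, was at 48.2, 45.1 and 39.0 CPM in Col-0, at 43.1, 43.9 and 46.9 CPM for AtCXE15-OE, and at 40.4, 33.8 and 34.6 CPM for atd14-1. The highest mutant library lay above the lowest of Col-0, and the value missed the threshold narrowly (-0.28 ± 0.09, edgeR adjusted p = 0.051, with 0.0155 to 0.209 over the alternatives). It was called lower without Col-0 replicate 3 (0.0155) or atd14-1 replicate 1 (0.0223), with RLE size factors (0.0467) and with no filter on low counts (0.0494). The same held by DESeq2 (0.023) and with replicate number as a block in the fit (0.047). The only locus of up to 100 kb that overlaps PIF1, AT2G20170 on the opposite strand, had 0 counts in the 9 libraries. PIF3, the first PIF to be described, which acts in seedling de-etiolation, was at 33.4, 36.9 and 38.9 CPM in Col-0, at 33.7, 36.5 and 38.5 CPM for AtCXE15-OE, and at 41.7, 42.2 and 43.3 CPM for atd14-1. It was the 1 gene of the 10 whose mutant libraries all lay above those of Col-0, a pattern seen in 15.7% of all genes tested. It did not pass the test with the main scaling (0.22 ± 0.07, edgeR adjusted p = 0.0653), and passed it with library size alone (0.30, adjusted p = 0.0154), and also when either replicate 3 of Col-0 (0.0454) or replicate 1 of AtCXE15-OE (0.0415) was left out. With replicate number as a block in the fit PIF3 was called higher too (0.0345).

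Shade-induced genes gave mixed results. ATHB2, a homeodomain-leucine zipper gene used as a shade marker, was at 21.0, 21.3 and 19.8 CPM in Col-0, at 14, 16.2 and 17.1 CPM for AtCXE15-OE, and at 16.7, 17.0 and 14.8 CPM for atd14-1. Both lines lay below Col-0 and overlapped each other. The fall in atd14-1 was -0.36 ± 0.10 on the log2 scale (edgeR adjusted p = 0.027), and the call was lost without Col-0 replicate 1 (0.0786), Col-0 replicate 2 (0.0805), atd14-1 replicate 1 (0.0556) or atd14-1 replicate 3 (0.111), and with library size alone (0.0816). PIL1 was at 2.34, 2.14 and 2.09 CPM in Col-0, at 2.71, 1.75 and 1.46 CPM for AtCXE15-OE, and at 1.34, 1.66 and 1.15 CPM for atd14-1, which are 52 to 112 counts per library. Its mutant libraries lay below those of Col-0, as in 15.8% of all genes tested. At a log2 difference of -0.66 ± 0.26 it missed the edgeR threshold (adjusted p = 0.137). HFR1, the inhibitor of PIFs, was at 12.8, 10.2 and 12.3 CPM in Col-0, at 7.90, 13.2 and 10.5 CPM for AtCXE15-OE, and at 12.8, 12.3 and 14.6 CPM for atd14-1. The groups overlapped (0.17 ± 0.16 in atd14-1, edgeR adjusted p = 0.597).

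Of the bZIP pair, HYH was at 17.2, 14.5 and 13.2 CPM in Col-0, at 11.6, 13.0 and 13.1 CPM for AtCXE15-OE, and at 11, 10.1 and 9.09 CPM for atd14-1. As for PIF5, the groups formed steps with no overlap, though the lowest Col-0 library lay close to the highest of AtCXE15-OE. The fall in atd14-1 of -0.57 ± 0.12 on the log2 scale (edgeR adjusted p = 0.00509) had the lowest estimate among the called genes of the set, while its difference from theirs was not tested. HY5 was at 19.6, 14.8 and 16.8 CPM in Col-0, at 16.9, 16.8 and 16.3 CPM for AtCXE15-OE, and at 14.2, 16.1 and 14.8 CPM for atd14-1. Its Col-0 libraries spread widely and overlapped both lines, and it did not pass the test (-0.18 ± 0.11, edgeR adjusted p = 0.317, 95% interval of the log2 fold change -0.41 to 0.04). Steps from Col-0 down to AtCXE15-OE and down to atd14-1 with no overlap, as in PIF5 and HYH, were seen in 1.61% of the 21425 genes tested, and steps upward in 1.14%.

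**Figure D2:**
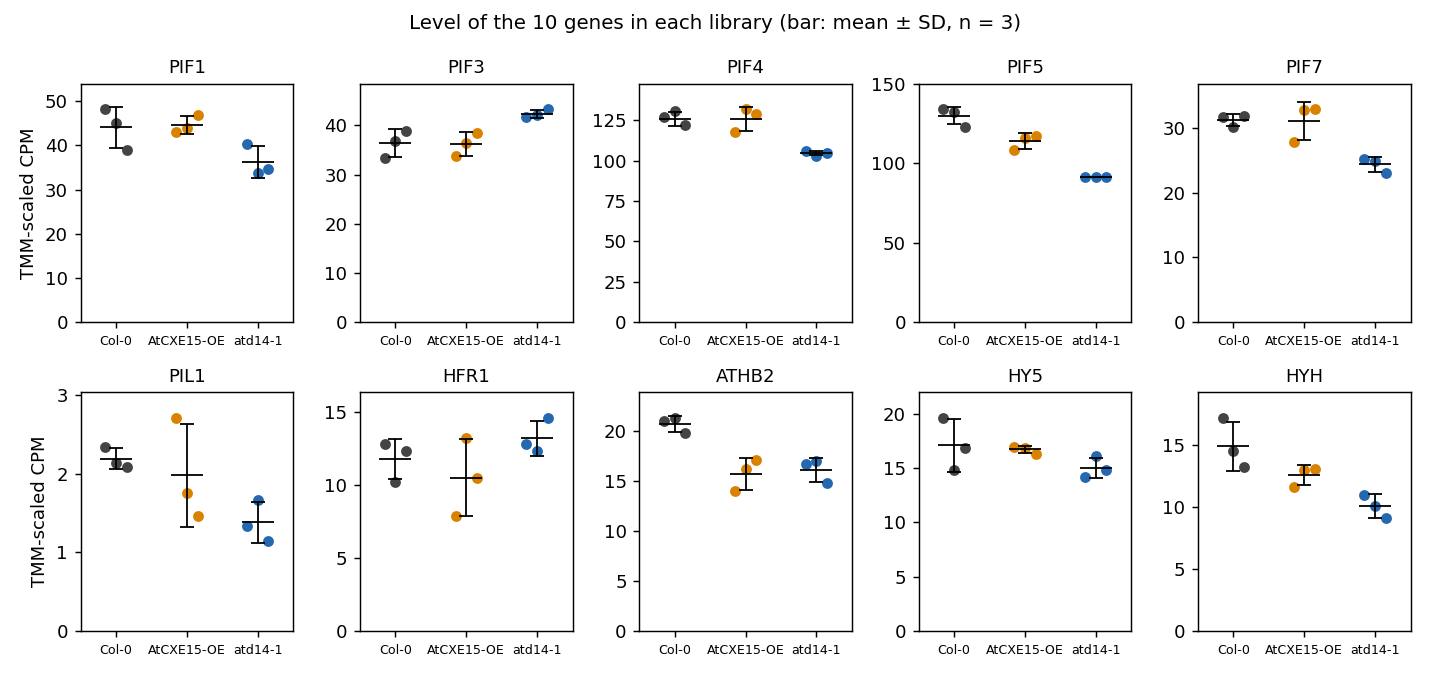
TMM-scaled CPM of each gene in each library, by group, on axes that start at 0. Points are libraries and bars the mean ± SD of 3. PIF5 and HYH step down from Col-0 to AtCXE15-OE to atd14-1, PIF4 and PIF7 are lower in atd14-1 alone, and ATHB2 is below Col-0 in both lines.

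The comparison of AtCXE15-OE with Col-0 asked how a line thought to hold less strigolactone differs. None of the 10 genes passed the edgeR test, where 2.27% of all genes tested did, 0.761% as higher and 1.51% as lower. At an unadjusted p under 0.05 there were 3. The largest of these, that of HYH (edgeR, 0.0483), stood at rank 2705 of the 21425 genes tested. DESeq2, which called more of all genes than edgeR did, called 2 of the 10, and limma-voom called 0. ATHB2 came closest at -0.39 ± 0.10 on the log2 scale (edgeR adjusted p = 0.0513), and was called lower with RLE size factors (0.0481), with no filter (0.0475) or a stricter filter (0.0494) on low counts, and by DESeq2 (0.00719). PIF5 was at -0.19 ± 0.05 (adjusted p = 0.0739, and 0.0211 by DESeq2) and HYH at -0.25 ± 0.12 (0.382). For these 3 genes each AtCXE15-OE library lay below each Col-0 library, which holds for 8.93% of all genes tested. PIF4, PIF3 and PIF7 had log2 fold changes that round to 0.00, with 95% intervals of -0.11 to 0.11, -0.16 to 0.15 and -0.17 to 0.16, and their signs turned with library size alone. PIF1 was at 0.02 ± 0.09, HY5 at -0.04 ± 0.11, PIL1 at -0.15 ± 0.26 and HFR1 at -0.16 ± 0.16. The AtCXE15-OE library that was highest for PIL1 (replicate 1) was the lowest for HFR1. Of the 10 genes 7 overlap other loci in the table. PIF1 does so at one end, and the other 6 lie wholly within spans of over 100000 bases, far longer than the lengths listed for those loci. HY5 lies within the span that the deposited table gives for the CXE15 locus (chromosome 5, 2007600 to 6762804, same strand, in the table's coordinates), and with the loci that span HY5 summed into it the value was 1.95. HY5 had 699 to 908 counts in the AtCXE15-OE libraries, against 37871 to 41385 for CXE15.

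The lines were then compared directly, which tests whether their differences from the shared Col-0 libraries differ. PIF4, PIF5 and PIF7 were lower in atd14-1 than in AtCXE15-OE, at -0.27 ± 0.05, -0.31 ± 0.05 and -0.35 ± 0.08 on the log2 scale (edgeR, adjusted p of 0.00677, 0.00218 and 0.0143). Of all genes tested 4.12% were called lower, 2.82% higher and 6.94% in either direction. The PIF7 call was lost without AtCXE15-OE replicate 2 (adjusted p = 0.063), AtCXE15-OE replicate 3 (0.0772) or atd14-1 replicate 3 (0.0623), which left 2 called genes of the 10. With the loci whose long spans cover them summed in, PIF4 (adjusted p = 0.342) and PIF5 (0.158) were not called. ATHB2 was at 0.04 ± 0.10 (adjusted p = 0.89, 95% interval -0.17 to 0.24), so that a difference between the lines was not detected for it. HYH was at -0.32 ± 0.12 (0.129), with each atd14-1 library below each of AtCXE15-OE, as in 13.7% of all genes tested. PIF1 (-0.30, 0.0555), PIF3 (0.22, 0.0829), HFR1 (0.33, 0.287), PIL1 (-0.51, 0.306) and HY5 (-0.15, 0.479) did not pass the edgeR test either. For PIF1 and HY5 each atd14-1 library also lay below each of AtCXE15-OE. For PIF3 each lay above, as in 12.3% of all genes tested. PIF1 was called lower without Col-0 replicate 3 (0.0309) or atd14-1 replicate 1 (0.0317), by DESeq2 (0.0206) and in a fit of the 6 compared libraries alone (0.0467). PIF3 was called higher with library size alone (0.0361), as were 1060 of the 21425 genes tested. With replicate number as a block in the fit, PIF1 was called lower and PIF3 higher.

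**Figure D3:**
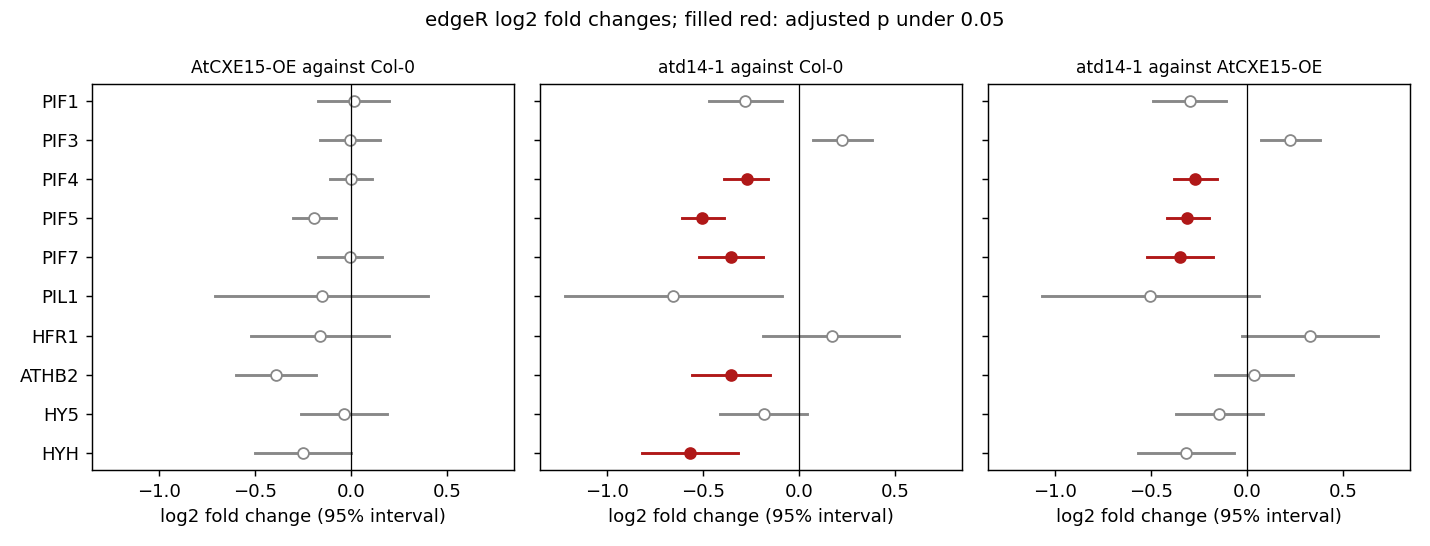
log2 fold changes of the 10 genes with 95% intervals in the 3 comparisons. Filled red points passed the edgeR test at an adjusted p under 0.05: none in AtCXE15-OE against Col-0, 5 in atd14-1 against Col-0 and 3 between the lines, all below 0.

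Ratios of raw counts between 2 genes of the same library do not depend on how libraries are scaled. The log2 ratio of PIF4 to PIF5 was -0.08, -0.01 and -0.02 in the Col-0 libraries, 0.13, 0.19 and 0.13 in those of AtCXE15-OE, and 0.21, 0.17 and 0.20 in atd14-1. PIF5 thus exceeded PIF4 in counts in each Col-0 library and was below it in each library of both lines. The difference from Col-0 was 0.19 ± 0.03 in AtCXE15-OE and 0.23 ± 0.02 in atd14-1 (SE). The ratio of ATHB2 to PIF4 was lower than Col-0 in AtCXE15-OE, at a log2 difference of -0.39 ± 0.05, with no overlap, while in atd14-1 (-0.09 ± 0.07) it overlapped Col-0. HY5 relative to HYH was higher in atd14-1 than in Col-0 by 0.39 ± 0.14, and PIF3 relative to PIF1 by 0.50 ± 0.18, both with no overlap. PIL1 relative to HFR1 was lower in atd14-1, at a difference of -0.85 ± 0.24, with no overlap. HY5 relative to PIF4 overlapped between groups in each comparison. Groups without overlap reach an exact permutation p of 0.1 (two-sided), the smallest that 3 against 3 libraries allow, and 0.225 when adjusted over the 18 tests, so no ratio passed a threshold of 0.05.

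**Figure D4:**
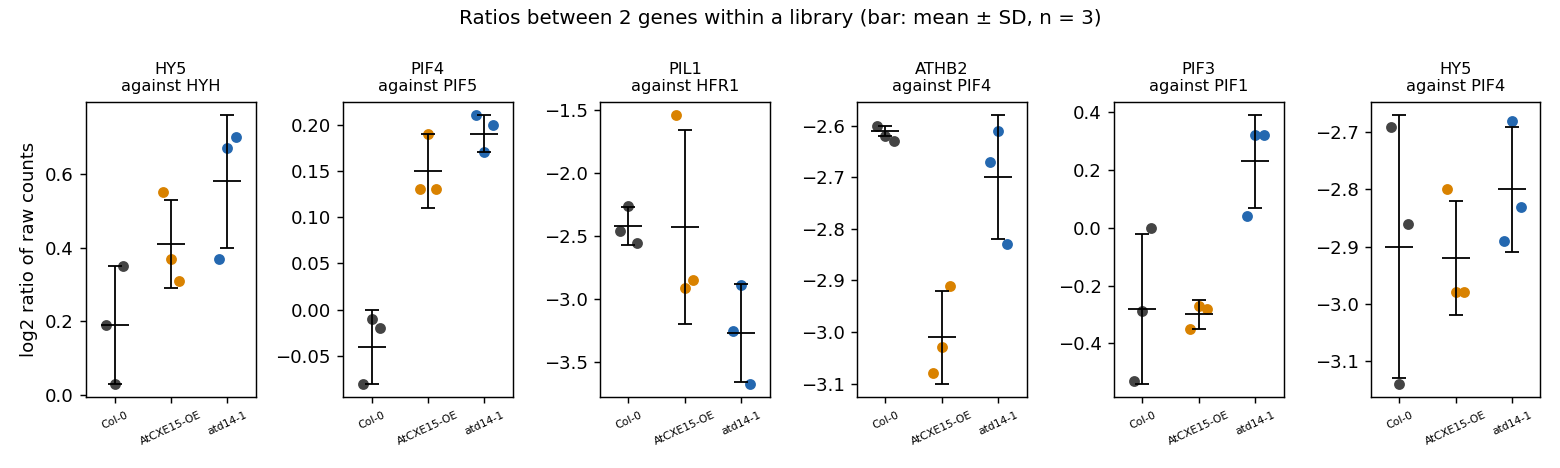
log2 ratios of raw counts between 2 genes within each library, by group. Each panel has its own axis, which does not start at 0, and bars give the mean ± SD of 3 libraries. PIF4 against PIF5 lies between -0.08 and -0.01 in Col-0 and between 0.13 and 0.21 in both lines.

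The other genes of the pathway were read from 8 lists of 79 genes, of which 77 could be tested. Of these, 4 rose and 18 fell in the receptor mutant, and 0 rose and 2 fell in the overexpression line. Over all genes tested 11.9% were called in atd14-1 and 2.27% in AtCXE15-OE, so that 2 of 77 in AtCXE15-OE is near the background, and the counts of both lines, here and for each list below, are to be read against these shares. Whether the lists differ between the lines was not tested. The lists were chosen with earlier results of these data known. Among the B-box genes, zinc finger factors that work with or against HY5, 8 were tested and 5 fell in atd14-1 (list median -0.54), and this count was 5 in each alternative run. STH (BBX25), a repressor of the HY5 branch, went from 45.4 ± 0.659 CPM in Col-0 to 32.7 ± 1.09 in AtCXE15-OE and 25.5 ± 2.29 in atd14-1 (-0.47 ± 0.07 and -0.83 ± 0.07 on the log2 scale, with edgeR adjusted p of 0.00253 and 5.10e-06). BBX32, which dampens HY5 activity, fell from 8.31 ± 0.259 to 4.32 ± 0.743 and 3.12 ± 0.606 CPM (-0.94 ± 0.17 and -1.42 ± 0.17, edgeR adjusted p = 0.00905 and 0.000107). BBX28, also an inhibitor of HY5, fell in atd14-1 from 38.9 ± 1.92 to 25.1 ± 0.388 CPM (-0.63 ± 0.08, adjusted p = 9.98e-05).

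Among 13 genes that HY5 is known to activate, 4 fell and 1 rose in atd14-1 (median -0.03), and 3 fell and 0 rose without Col-0 replicate 3, atd14-1 replicate 2 or atd14-1 replicate 3. With library size alone 3 fell and 4 rose, where 968 of the 21425 genes tested were called lower and 2241 higher. LHCA1, a light-harvesting gene, went from 3380 ± 60.3 to 2000 ± 140 CPM (-0.76 ± 0.07, edgeR adjusted p = 9.19e-06), and GUN5, a subunit gene of Mg-chelatase, from 1910 ± 51.3 to 1370 ± 48.2 (-0.49 ± 0.06). LHCA1 is also one of the leaf mesophyll markers. RUP2, which switches off the UV-B receptor, fell from 15.2 ± 0.700 to 10.4 ± 0.163 CPM (-0.55 ± 0.10). The list of 17 shade and PIF-induced genes had 4 that fell and 1 that rose (median -0.25), with 14 below 0. PKS4, a phototropism gene, fell from 10.6 ± 0.293 to 6.20 ± 0.703 CPM (-0.77 ± 0.11, adjusted p = 0.000405), the cell wall gene XTH33 fell from 3.20 ± 0.638 to 1.17 ± 0.288 (-1.45 ± 0.25, 0.00139), and the cytokinin oxidase gene CKX5 rose from 6.05 ± 0.190 to 8.41 ± 0.417 (0.48 ± 0.12, 0.021). The CKX5 call was lost without Col-0 replicate 1, Col-0 replicate 2, atd14-1 replicate 2 or atd14-1 replicate 3, and the list then held 3 calls (Col-0 replicate 1) or 2 calls. It held 3 calls without Col-0 replicate 3 or atd14-1 replicate 1, with library size alone and by limma-voom. In AtCXE15-OE 0 genes of either list passed the edgeR test. There DESeq2 called 3 of the shade list and 1 of the HY5 list. The shade list had 1 call with RLE size factors, with no filter or a stricter filter on low counts, and with a replicate block. It had 2 calls without AtCXE15-OE replicate 3, and the HY5 list had 2 without AtCXE15-OE replicate 1. An unadjusted p under 0.05 was seen for 5 of the shade list and 3 of the HY5 list. The largest of these p (edgeR, 0.0273) stood at rank 1946 of the 21425 genes tested.

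Upstream of the PIFs stand light receptors and factors that act on PIF proteins. Of 10 photoreceptor genes the blue-light receptor gene CRY1 (-0.26 ± 0.06, edgeR adjusted p = 0.00588) and the far-red receptor gene PHYA (-0.21 ± 0.06, 0.0339) fell in atd14-1, and PHYB, the main red-light receptor gene, was at 0.00 (0.979). PHYE had wide errors and was not called, at 1.02 ± 2.23 in atd14-1 (0.851) and -7.185 ± 3.55 in AtCXE15-OE (0.485). The PHYA call was lost without Col-0 replicate 2, Col-0 replicate 3 or any 1 atd14-1 library, with library size alone and by limma-voom. Of the 8 genes of the COP1/SPA and DET1 group 0 passed the edgeR test in atd14-1. There 0 were called by DESeq2, 3 had an unadjusted p under 0.05 and 6 were below 0. The largest of these 3 p (edgeR, 0.0255) stood at rank 4053 of the 21425 genes tested. Without AtCXE15-OE replicate 1, or with replicate number as a block in the fit, 1 was called lower in atd14-1. With library size alone 1 was called higher, as were 2241 of the 21425 genes tested. In AtCXE15-OE against Col-0 edgeR called 0 and DESeq2 called 1. Of 10 genes for the evening complex, DELLA proteins and BZR factors, which restrain or assist PIFs, ELF4 rose in atd14-1 (0.36 ± 0.08, adjusted p = 0.00577). The evening complex that ELF4 belongs to is known to repress PIF4 and PIF5, and its part in their falls was not tested. Its other genes ELF3 (0.15, adjusted p = 0.304) and LUX (0.13, 0.367) were not called in atd14-1. In AtCXE15-OE each library lay above each Col-0 library for ELF3 (0.26), ELF4 (0.23) and LUX (0.26), as in 8.93% of all genes tested. None of them was called there (edgeR adjusted p of 0.187, 0.168 and 0.134). Of 7 atypical HLH genes tested PRE1 (-0.68 ± 0.18, 0.025) and KDR (-0.33 ± 0.09, 0.0223) fell, and both calls were lost without Col-0 replicate 2, Col-0 replicate 3 or atd14-1 replicate 2. The KDR call was also lost without atd14-1 replicate 1 and with library size alone, and the PRE1 call without atd14-1 replicate 3. Of 4 further bHLH genes close to the PIFs, UNE10 (PIF8) fell (-0.32 ± 0.07, 0.00523) and PIL2 (PIF6) rose (0.55 ± 0.13, 0.0136), the latter not without Col-0 replicate 2, atd14-1 replicate 2 or atd14-1 replicate 3.

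**Figure D5:**
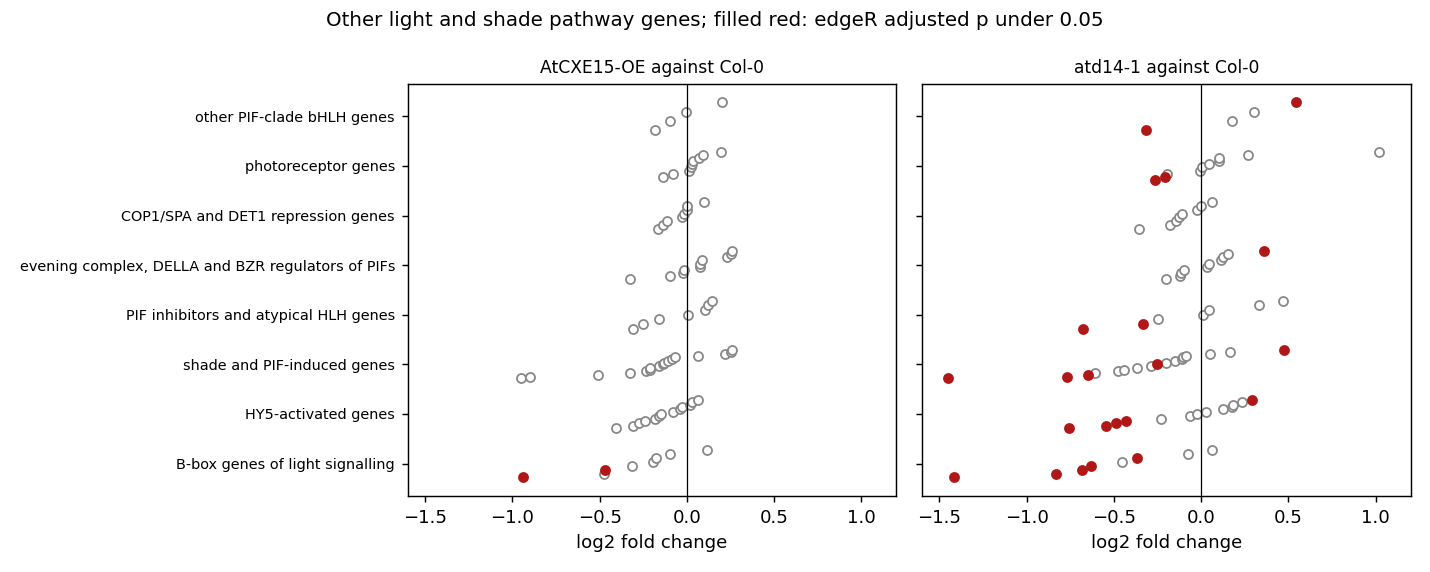
log2 fold changes of the genes of 8 pathway lists in AtCXE15-OE and atd14-1 against Col-0. Points are genes, filled red where the edgeR adjusted p was under 0.05. The point of PHYE in AtCXE15-OE (-7.185 ± 3.55 SE, edgeR adjusted p = 0.485) lies outside the axis and is not shown. In AtCXE15-OE 2 B-box genes are filled, and in atd14-1 22 genes are, 18 of them below 0.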

How the data were processed

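Messenger RNA was isolated from whole seedlings with oligo(dT) beads and sequenced, 3 libraries per group. The deposited table holds raw counts per locus made by the authors. Per the submitters' processing notes, HISAT2, Picard, SAMtools 0.1.18 and DESeq 1.39.0 were used with TAIR10; the counting program, its strand setting and the treatment of overlapping genes are not stated there. The table lists a gene length beside the counts (deposited by the authors, used only for CPM per kb), and 0 columns of samples were left unused. It holds 27814 loci, 448 of them without a locus ID.

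Counts were tested with edgeR 4.0.16 (R 4.3.3; TMM scaling, robust quasi-likelihood fit of all 9 libraries, low counts removed by group), which left 21425 genes, with Benjamini-Hochberg adjustment over all of them and a threshold of 0.05. Alternatives were RLE size factors, library size alone, other filters, DESeq2 1.42.0, limma-voom (limma 3.58.1), the 6 compared libraries alone, a replicate block, summed overlapping loci and each library left out. The sum restricted to loci of up to 100000 bases was chosen after seeing the data. The fit was checked on simulated counts. The 10 genes and the lists were chosen with earlier results of these data known. The text names the 10 genes, and from each list up to 3 called genes with the smallest adjusted p per comparison with Col-0. PHYB, PHYE, ELF3 and LUX were named after their values were seen, as were single mesophyll markers. Promoters were cut from the RefSeq assembly TAIR10.1 and proteins aligned with Biopython 1.88. A library of 37724263 to 54421069 counts puts 3 counts at 0.0551 to 0.0795 CPM, which covers counting error only.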

Additional observations from a re-analysis of the deposited data

Results flagged for a closer look

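Differences between the lines under the same contrast with Col-0 passed the test for 3 genes. The direct log2 fold change of atd14-1 against AtCXE15-OE, which is the difference between the contrasts, was -0.272 for PIF4, -0.313 for PIF5 and -0.351 for PIF7 (edgeR adjusted p = 0.00677, 0.00218 and 0.0143), with each atd14-1 library below each AtCXE15-OE library in all 3 genes. Of all genes tested, 4.12% were called lower and 13.7% had libraries set apart in this way. The PIF7 call was lost without AtCXE15-OE replicate 2, AtCXE15-OE replicate 3 or atd14-1 replicate 3. With the loci whose long spans cover them summed in, PIF4 (adjusted p = 0.342) and PIF5 (0.158) were not called. For PIF4 and PIF7 the AtCXE15-OE libraries overlapped those of Col-0, and for PIF5 they lay below them. The sum of 7 leaf mesophyll markers was 23070 to 30290 CPM in AtCXE15-OE and 21830 to 26180 CPM in atd14-1. Between the lines 3 of the 7 passed the edgeR test as lower in atd14-1 and 0 as higher. Of 12 root markers, 3 were called higher in atd14-1 than in AtCXE15-OE by DESeq2 or with library size alone. The part of either in these differences was not tested.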

How the results depend on the processing

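Leaving aside the sums over overlapping loci with no limit on span, 18 alternatives were run on the 30 fold changes of the 10 genes. Of these 540 values, 489 kept direction and side of the threshold, 8 lost the call, 22 gained one and 21 changed sign. The falls of PIF4, PIF5, PIF7 and HYH in atd14-1, and of PIF4 and PIF5 between the lines, were called in all 18. In AtCXE15-OE, 1 of the 10 genes was called with RLE size factors, with no filter and with a stricter filter (ATHB2 each time), 1 with overlapping loci summed (HY5), 2 by DESeq2, and 0 to 0 with a library left out. All genes called there numbered 840 by DESeq2 and 287 to 586 with a library left out, against 487, and list genes 8 and 2 to 4, against 2. In atd14-1 the 10 genes gave 4 to 7 calls with a library left out, all genes 1704 to 3118 and list genes 13 to 23. Between the lines these ranges were 2 to 4, 769 to 2216 and 5 to 13, and DESeq2 called 13 list genes. Replicate numbers did not pair the libraries: deviations of same-numbered libraries correlated at -0.052 to 0.052. With the replicate block 0, 7 and 5 of the 10 genes were called in AtCXE15-OE, atd14-1 and between the lines. The block added PIF1 as lower (adjusted p = 0.047 in atd14-1 and 0.0465 between the lines) and PIF3 as higher (0.0345 and 0.0459), and 1 gene of the COP1/SPA and DET1 list as lower in atd14-1. Library size alone moved the median of all genes by 0.02, 0.08 and 0.05 (log2), and raised the share of higher calls from 33.5% to 44.5%, from 42.4% to 69.8% and from 40.6% to 65.8%. It turned PIF3, PIF4 and PIF7 in AtCXE15-OE to 0.0214, 0.023 and 0.0213. PIF3 turned to 0.0016 with limma-voom and PIF4 to 1e-04 with no filter. With overlapping loci summed, AtCXE15-OE gave 1.11 for PIF4, 0.088 for ATHB2 and 1.95 for HY5, atd14-1 gave -0.463 for PIF3, -0.224 for HFR1 and 0.0372 for ATHB2, and the lines differed by -0.432 for PIF3, -0.104 for HFR1 and -0.0508 for ATHB2; these sums are mostly counts of the other loci. With a library left out, values in AtCXE15-OE ran from -0.0628 to 0.0862 for PIF1, -0.0626 to 0.0474 for PIF3, -0.036 to 0.045 for PIF4, -0.0452 to 0.0715 for PIF7, -0.444 to 0.0236 for PIL1, -0.354 to 0.0088 for HFR1 and -0.129 to 0.077 for HY5, and between the lines from -0.044 to 0.0981 for ATHB2. In a window of 100 bases 0 promoters of the 10 held a G-box, 0 a PBE-box and 0 either. Where no cause is given, the cause was not tested. PIL1, at 52 to 112 counts per library, had the widest intervals.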
